A study of Homo sapiens with 48 samples.

Results

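92-1 is a human uveal melanoma cell line, and the response described here is that of its transcriptome to FHT-1015 after 24 h. It was chosen by the labels alone: the 3 libraries of 92-1 kept 24 h in FHT-1015 were compared with the 3 libraries of 92-1 kept 24 h in DMSO from the same experiment, which is 6 of the 48 samples of the series. FHT-1015 inhibits SMARCA4 and SMARCA2, the paralogous ATPases that drive the BAF chromatin remodelling complex, and DMSO is the solvent alone. Both groups carry the label WT for genotype, neither has an engineered allele, and the dose of the inhibitor was not given in the sources used here. The rest of the series holds the 4 h samples of the same experiment, the lines MEL202 and MP41 under the same treatment, and a separate experiment on 92-1 with another drug. All reads came from bulk poly-A RNA, in which fewer cells of a type and less RNA per cell cannot be told apart. The labels call the replicates biological and do not say whether they were separate cultures, so p-values measure the spread between these samples.

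BAF complexes use ATP to slide and evict nucleosomes, which keeps enhancers open for the transcription factors that give a cell its identity. In melanocytes and in the tumours that arise from them, SOX10 and MITF are such factors: SOX10 binds upstream of MITF and of pigment genes, and MITF binds M-box and E-box elements in the promoters of the enzymes that make melanin. Uveal melanoma usually starts from an activating mutation in the G proteins GNAQ or GNA11, which signal through phospholipase C, protein kinase C and the MAPK cascade.

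The DMSO libraries held 22683188, 15970346 and 16387457 counts in genes and the FHT-1015 libraries 14488546, 11991337 and 16340823, ranges that overlap. Mitochondrial genes took 7.07 to 7.43% of the counts in DMSO and 8.2 to 9.55% with FHT-1015. Each pair of replicates at 24 h differed by more than sampling noise (chi-square per gene 4.18 to 17.4), so none was a library deposited again. Across the 12 libraries of the experiment, the first principal component carried 60.9% of the variance and set the 3 FHT-1015 24 h libraries (93.76 to 96.51) apart from the other 9 (-45.26 to -16), and the treated 4 h libraries were separated on the second component, which carried 16.4%. The DMSO libraries had the melanocytic markers of the label: 10 of them summed to 19380 to 21300 CPM (the usual counts-per-million scale), and to 4976 to 5274 with FHT-1015, where 8 of the 9 tested fell. S100B was under 1 CPM in every library and CSPG4 at most at 1.33. The 10 leukocyte and 7 epithelial markers were each under 1 CPM in every library, and CD3D and CD2 were at 0.

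FHT-1015 changed the level of 60.6% of the genes tested at 24 h. Among 15685 genes past the low-count filter, 4580 rose (29.2%) and 4920 fell (31.4%) with FHT-1015 at an adjusted p under 0.05 (edgeR's quasi-likelihood test, Benjamini-Hochberg over all genes tested). The counts at 24 h for each gene list below are to be read against these 2 shares. Those at 4 h are to be read against 12.9% of all genes higher and 16.7% lower at that time. The changes were mostly modest: 58.5% of the called genes moved less than 2-fold, 2099 genes rose (13.4%) and 1839 fell (11.7%) by at least 2-fold, and 101 rose and 85 fell by at least 16-fold. A test against a 2-fold change itself (glmTreat) gave fewer, 1102 higher and 1081 lower. The median log2 fold change over all genes tested was -0.001, and the median standard error was 0.144. Directions differed by class of gene. Protein-coding genes fell more often than they rose (36.5% against 28.8% of 12588), whereas lincRNA genes rose more often (45.8% against 12.4% of 613), as did antisense genes (38.7% against 9.86% of 832). The libraries carry no strand information, so an antisense transcript and its partner cannot be told apart in the stretch they share. The same holds for any genes that overlap, and reads that fall on such a stretch are left out of the counts used.

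**Figure D1:**
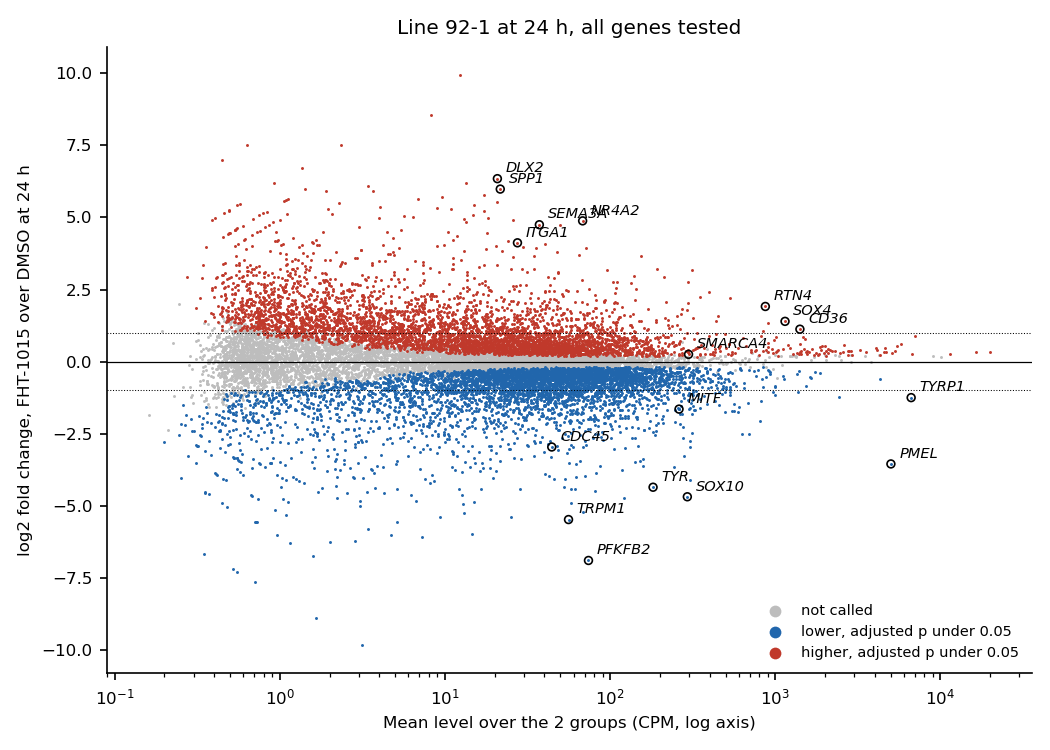
Log2 fold change of FHT-1015 against DMSO at 24 h in 92-1 (vertical axis) against mean expression in CPM on a log axis (horizontal axis), 1 point for each of the 15685 genes tested. Coloured points passed the test: 4580 genes lie above and 4920 below, spread over the whole range of expression.

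Values of single genes below are CPM over library sizes scaled by TMM, each change is a log2 fold change of FHT-1015 against DMSO at 24 h, and each p is edgeR's, adjusted over the 15685 genes. Gene positions are those of GENCODE release 29 on GRCh38.

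SOX10, the neural crest factor at the head of the melanocyte programme (minus strand of chromosome 22, 37970686-37987422), was at 519, 585 and 590 CPM in the DMSO libraries and at 22.9, 24.2 and 18.7 CPM with FHT-1015. The groups did not overlap, and the change was -4.69 (SE 0.15, adjusted p 3.14e-12). Of all 15685 genes tested, 5284 lay lower and 4989 higher with no overlap between the groups. On the chromosome, SOX10 overlaps POLR2F. MITF, the master regulator of pigment cells (plus strand of chromosome 3, 69739435-69968337), was at 458, 346 and 384 CPM in DMSO and at 131, 117 and 131 CPM with the inhibitor, a change of -1.65 (SE 0.13, adjusted p 3.4e-08). SOX10 was low early: it was at 14.4 ± 3.44 CPM at 4 h against 436 ± 32.6 CPM in its own DMSO (SD, n = 3), and the change at 24 h differed from that at 4 h by 0.25 with an adjusted p of 0.307. The call on that difference was gained only without replicate 3 of FHT-1015 at 4 h, where it was 0.43. MITF was at 296 ± 59.1 CPM at 4 h against 369 ± 10.4 CPM in DMSO, and its change was larger at 24 h by -1.33 (SE 0.18, adjusted p 2.57e-05).

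The wider list of melanocyte lineage transcription factors did not move as a block. Of 29 tested, 12 rose (41.4%, beside 29.2% of all genes) and 11 fell (37.9%, beside 31.4%). The median change was -0.01 and took either sign across the alternative settings (-0.06 to 0.06). The largest rise was in NR2F1, a nuclear receptor of the neural crest, from 3.31, 3.45 and 3.76 to 65.5, 55.6 and 45.5 CPM (log2 change 3.99, SE 0.19, adjusted p 1.36e-10). ETV1, an ETS family factor, rose by 1.81, and LEF1, a nuclear effector of WNT signalling, rose by 1.69. SOX4, a relative of SOX10, was abundant in DMSO at 563, 592 and 737 CPM and rose to 1655, 1594 and 1728 CPM (1.40, SE 0.11, adjusted p 2.19e-08). The other large falls were in IRF4, a pigmentation factor, whose raw counts went from 50, 21 and 31 to 2, 0 and 0, and in TFAP2C (-2.81). IRF4 with FHT-1015 was under the floor of 3 counts in each library, so its fall is a bound: at least 8.92-fold lower. The list thus held factors that moved in opposite directions in the same libraries.

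Most pigment genes fell. Of 44 tested genes for melanin synthesis and melanosome proteins, 34 fell, 21 of them by at least 2-fold, and 1 rose, with a median change of -0.80. At 4 h, 20 of them had fallen and 2 had risen, beside 16.7% of all genes lower and 12.9% higher at that time. TRPM1, a cation channel of melanocytes (minus strand of chromosome 15, 31001061-31161273), went from 118, 112 and 98.7 CPM to 1.98, 2.54 and 2.79 CPM (-5.48, SE 0.16, adjusted p 1.76e-12), while at 4 h it was slightly higher than in DMSO (0.34, adjusted p 0.0328). TYR, the rate-limiting enzyme of melanin synthesis, went from 413, 324 and 304 CPM to 16.4, 15.5 and 18.7 CPM (-4.36, SE 0.14, adjusted p 3.14e-12). DCT, which acts after TYR in the same pathway, had raw counts of 178, 96 and 97 in DMSO and 3, 1 and 1 with the inhibitor, which makes it at least 32.5-fold lower. The groups did not overlap in any of these 3 genes, as in 5284 of all 15685 genes in that direction and 4989 in the other.

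The M-box TCATGTG, a site for MITF, is the element for which these promoters are known, so the stretch around it is shown for the melanosome genes with the largest falls that hold one upstream of their start. The sequences are RefSeq's for GRCh38.p14, read 5′ to 3′ on the strand of the gene, with the M-box in capitals. In DCT (minus strand, chr13:94479781-94479847) it lies 135 to 129 bases before the start, which is 1 of 2 annotated starts, and in TYR (plus strand, chr11:89177740-89177806) 105 to 99 bases before it.
DCT: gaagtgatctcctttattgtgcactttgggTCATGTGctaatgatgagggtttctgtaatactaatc
TYR: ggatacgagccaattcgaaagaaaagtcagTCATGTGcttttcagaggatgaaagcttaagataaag
Searched on both strands from 250 bases before to 50 after each start, TCATGTG was in 8 of 59 promoters of the 45 melanosome genes (13.6%), in 1.96% of the promoters of DNA replication genes and in 2.92% of all 35116 promoters. Among the promoters of all genes that fell it was in 2.28%, and among those of all genes that rose in 1.71%. The related E-box CACGTG, which no M-box contains, was in 10.2% of the melanosome promoters, 11.7% of the promoters of genes that fell, 7.39% of those of genes that rose and 7.26% of all promoters. The letters AACAATG or CATTGTT, a SOX site, were in 1.69% of the melanosome promoters and 3.33% of all. A match is a description of the letters and says nothing of binding in these cells.

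The most abundant of these transcripts took a visible share of all counts. PMEL, which builds the fibrils on which melanin is laid down, went from 9734, 8976 and 8988 CPM to 890, 832 and 642 CPM (-3.55, SE 0.12, adjusted p 3.14e-12). TYRP1, another enzyme of the pathway, went from 10477, 8335 and 9255 CPM to 4065, 3659 and 4076 CPM (-1.25, SE 0.11, adjusted p 1.63e-07). Per length, in TPM (transcripts-per-million), the level of TYRP1 was close to that of PMEL in DMSO (7669.8 and 7264) and well above it with FHT-1015 (3207 and 615). All 45 melanosome genes together took 2.513, 2.318 and 2.359% of gene counts in the DMSO libraries and 0.8663, 0.8774 and 0.9127% in the treated libraries. The mean share fell from 2.397% (SD 0.103) to 0.8855% (SD 0.0242), with no overlap, and the two-sided exact permutation p was 0.1, the smallest that 3 against 3 allow. PMEL alone went from a mean of 0.9118% to 0.08172% of gene counts, a change of -0.8301 of the -1.511 percentage points. The gene of the list that rose was GPNMB, a melanosome and lysosome glycoprotein, from 1606, 1509 and 1514 to 2054, 2219 and 2254 CPM (0.50, SE 0.07, adjusted p 2.35e-05). Transcripts of the list thus ran from a deep fall to a small rise.

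**Figure D2:**
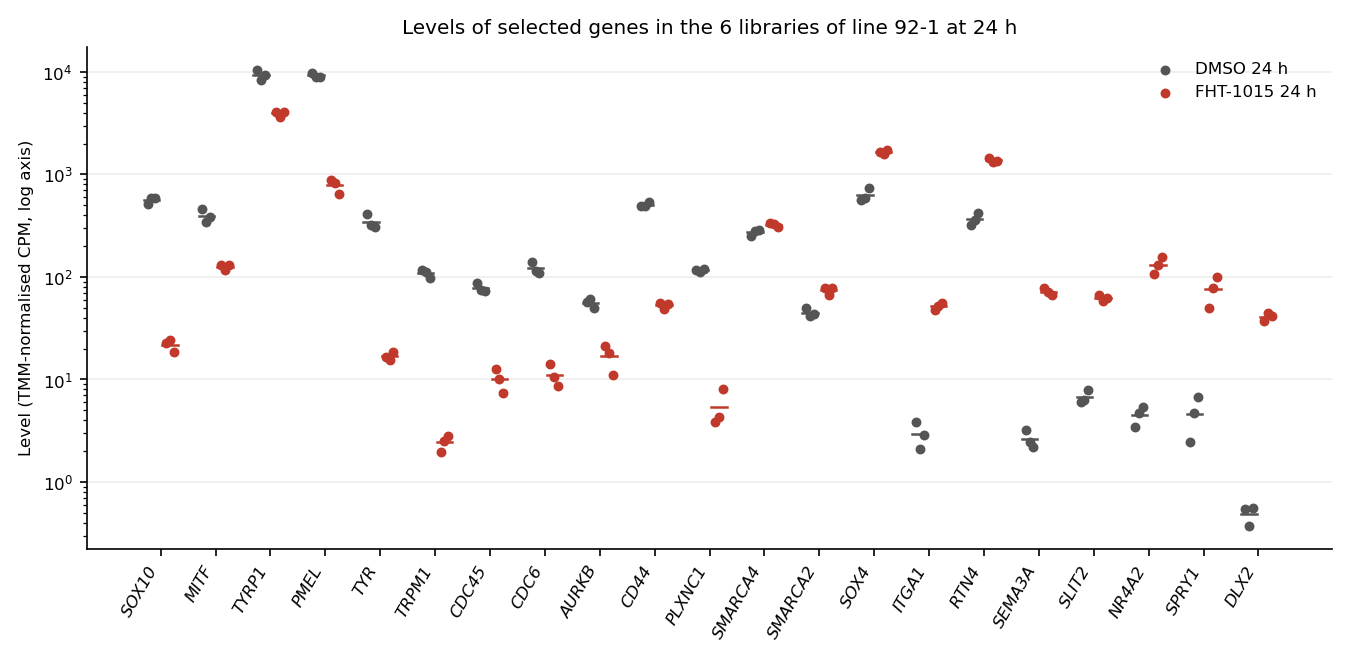
Expression of 21 genes in each of the 6 libraries of 92-1 at 24 h, in CPM on a log axis, 1 point per library, with DMSO and FHT-1015 in separate colours. SOX10, TYR and TRPM1 drop with a wide gap between the groups, while SMARCA4 stays within 251 to 337 CPM in all 6 libraries.

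Genes for DNA replication fell without exception. All 45 were tested and all 45 fell, 44 by at least 2-fold, with a median change of -2.02 and a range from -3.44 in CDC6 to -0.86 in POLE, a gene named here after its value was seen. At 4 h, 10 had fallen and 1 had risen, beside 16.7% and 12.9% of all genes, and the median was -0.18. CDC6, which loads the MCM helicase onto origins, went from 139, 114 and 110 CPM to 14.2, 10.5 and 8.73 CPM (-3.44, SE 0.17, adjusted p 2.15e-10). GINS2 and CDC45, parts of the active helicase, fell by 3.06 and 2.96 on the log2 scale. CDC45 was at 87.7, 74.9 and 72.7 CPM in DMSO and at 12.7, 10.2 and 7.45 CPM with FHT-1015. For all 45 genes the change at 24 h lay below that at 4 h in the test of the difference, beside 24.3% of all genes in that direction and 21.1% in the other.

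Most genes of mitosis fell as well: 39 of 44 tested fell, 18 of them by at least 2-fold, and the median change was -0.90. AURKB, the kinase of the chromosomal passenger complex, went from 56.5, 61.3 and 50.1 CPM to 21.1, 18.3 and 11.1 CPM (-1.74, SE 0.17, adjusted p 3.04e-07), and SPC25, a kinetochore subunit, fell by 1.78 on the log2 scale. MAD2L1, a spindle checkpoint protein, fell by 1.66. The 1 rise, in the phosphatase CDC25B (0.20, adjusted p 0.0309), did not hold in 8 of the 12 refits with a library removed, nor without the low-count filter. At 4 h, 5 mitosis genes had fallen and 1 had risen, beside 16.7% of all genes lower and 12.9% higher at that time.

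Promoters of these groups are known for E2F sites, which carry the G1 to S programme, and for the cell cycle gene homology region (CHR), which carries the later mitotic programme. The replication and mitosis genes with the largest falls that hold such letters upstream are shown with the match in capitals, again from RefSeq for GRCh38.p14 on the strand of the gene. The E2F letters lie 160 to 153 bases before the start in UHRF1 (plus strand, chr19:4909954-4910021, 1 of 3 starts) and 53 to 46 in POLA2 (plus strand, chr11:65261879-65261946). The CHR letters lie 247 to 242 bases before the start in SPC25 (minus strand, chr2:168890642-168890680), near the far edge of the 250 bases searched. In INCENP they lie 10 to 5 bases before it (plus strand, chr11:62123971-62124010).
UHRF1: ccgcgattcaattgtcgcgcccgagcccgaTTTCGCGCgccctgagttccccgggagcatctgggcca
POLA2: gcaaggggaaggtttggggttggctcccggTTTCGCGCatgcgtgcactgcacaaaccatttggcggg
SPC25: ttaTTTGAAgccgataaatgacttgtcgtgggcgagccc
INCENP: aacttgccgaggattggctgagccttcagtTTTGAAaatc
TTTGGCGC or TTTCGCGC was in 12 of 51 promoters of the replication genes (23.5%), in 6.25% of those of the mitosis genes, in none of the 59 melanosome promoters and in 1.15% of all promoters. TTTGAA was in 32 of 48 promoters of the mitosis genes (66.7%), in 1.96% of those of the replication genes and in 15.2% of all. CCAAT, which often lies beside a CHR, was in 77.1%, 54.9% and 34.6% of the same 3 sets. Over all genes that fell, the E2F letters were in 2.38% of promoters, and over all that rose in 1.49%. The CHR letters were in 11% and 10.2% of the same promoters, both under the 15.2% of all. Here too a match says nothing of binding in these cells. UHRF1, a factor of DNA methylation at the fork, had a change of -2.72, POLA2, a subunit of DNA polymerase alpha, of -2.09, and INCENP, the scaffold of the passenger complex, of -1.57.

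The controllers of the cycle were mostly lower too. Among 27 tested D and E cyclins, cyclin-dependent kinases (CDKs), inhibitors, RB and E2F family members, 17 fell and 7 rose (median -0.78). E2F1 went from 73.5, 69.8 and 71.5 CPM to 9.48, 7.85 and 7.22 CPM (-3.13, SE 0.13, adjusted p 1.99e-11). CCNE2, an E cyclin, fell by 2.63 on the log2 scale, or by 1.59 when the counts the files give for each strand are summed in place of the unstranded count. CDK2 went from 491, 448 and 418 to 35.1, 40 and 33.2 CPM (-3.65, adjusted p 7.46e-12); it overlaps PMEL on the other strand, and how far reads of PMEL enter that value was not tested. CDKN2B, an inhibitor of CDK4 and CDK6, rose by 1.53, RB1 by 0.99 and TFDP2, a partner of E2F proteins, by 1.02. CDKN1A, which encodes the inhibitor p21, fell from 54.9, 55.1 and 62.4 to 32.2, 32.1 and 25 CPM (-0.95, SE 0.12, adjusted p 4.08e-06).

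**Figure D3:**
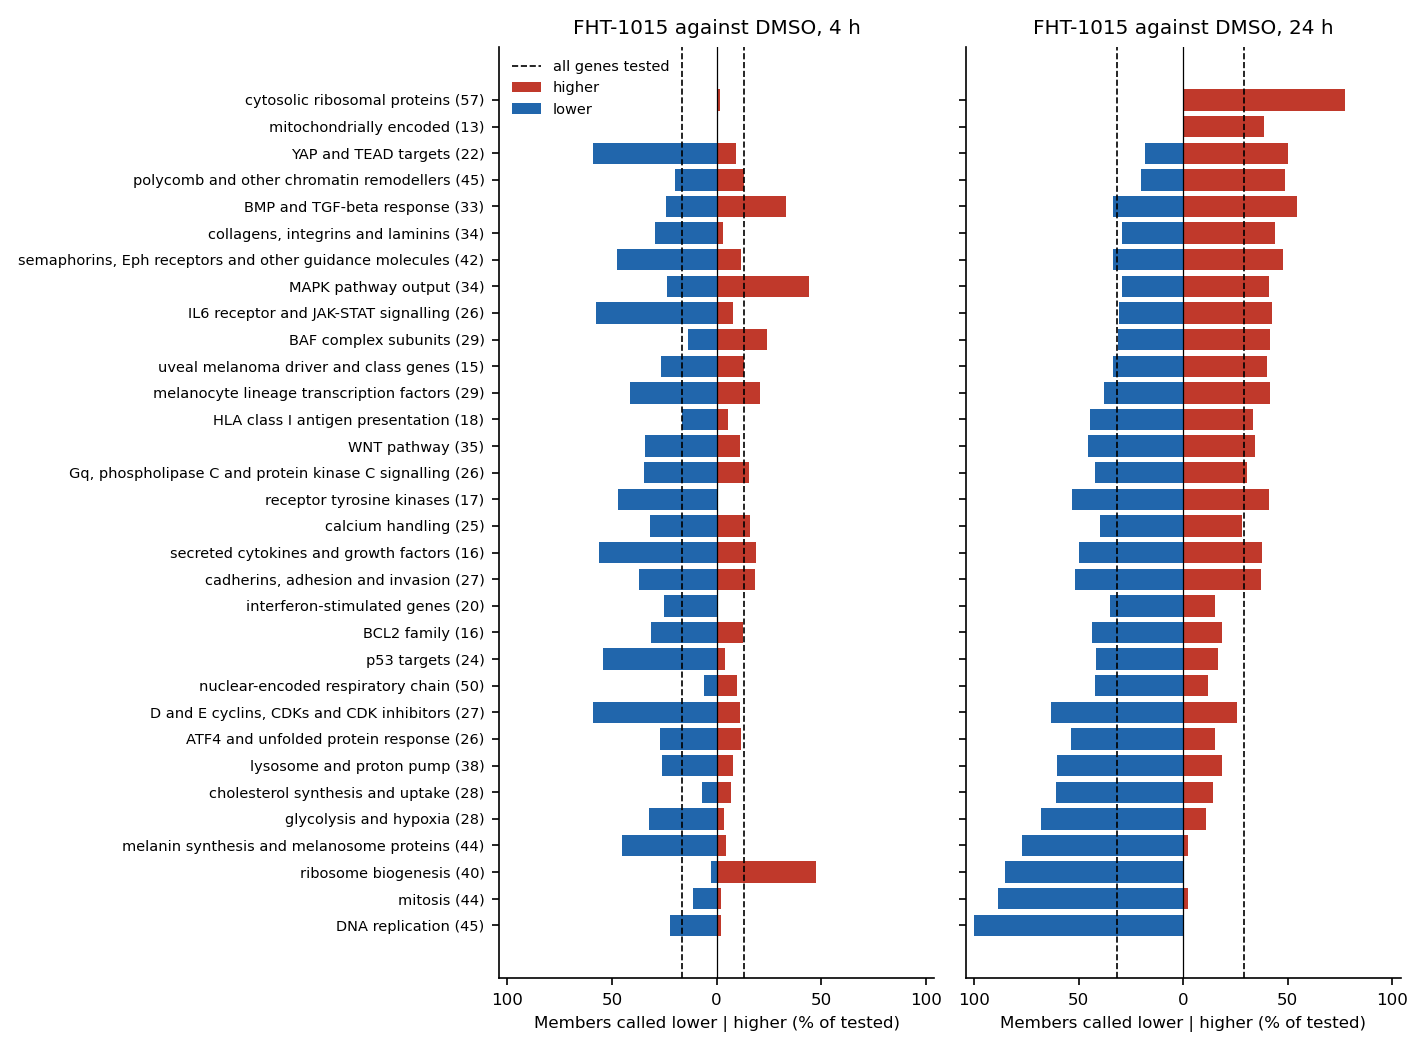
Percent of the tested genes of each list that passed the test as higher or lower with FHT-1015 in 92-1 at 4 h and at 24 h. Dashed lines give the same percentages over all genes tested (12.9% higher and 16.7% lower at 4 h, 29.2% higher and 31.4% lower at 24 h), and the DNA replication list reaches 100% lower at 24 h.

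Genes of ribosome production split. Of 40 tested ribosome biogenesis factors, 34 fell, 19 of them by at least 2-fold, and 0 rose (median -0.89). At 4 h, by contrast, 19 had risen and 1 had fallen (median 0.23), beside 12.9% and 16.7% of all genes. With library size alone as the scaling, 2 rose at 24 h. NOLC1, a nucleolar phosphoprotein, went from 431, 398 and 376 CPM to 135, 138 and 136 CPM (-1.56, SE 0.09, adjusted p 6.99e-10), and TCOF1, a partner in transcription of ribosomal DNA, fell by 1.56 as well. NOP16, a nucleolar protein of the large subunit, fell by 1.79, but by 0.44 with the sum of the stranded counts, and it overlaps 2 other genes. The proteins of the mature cytosolic ribosome moved the other way by small steps: 44 of 57 rose, 0 by at least 2-fold, with a median of 0.33. RPL13A, a large-subunit protein, went from 4674, 4257 and 4810 CPM to 7750, 6585 and 6666 CPM (0.61, SE 0.10, adjusted p 6.59e-05), with RPL28 at 0.61 and RPS9 at 0.56. Single libraries decided the count of rises. Dropping DMSO replicate 2 left 22, dropping DMSO replicate 3 left 28 and dropping FHT-1015 replicate 1 left 25, with 0 falling in each case. Its median stayed between 0.25 and 0.40 over all alternatives.

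Glycolysis genes mostly fell, and genes of mitochondria were mixed. Of 28 tested genes of glycolysis and hypoxia, 19 fell and 3 rose (median -0.63). LDHA, which turns pyruvate into lactate, went from 1115, 967 and 915 CPM to 363, 369 and 366 CPM (-1.45, SE 0.09, adjusted p 1.2e-09). HK2, which phosphorylates glucose, fell by 1.45 and PFKP, a phosphofructokinase, by 1.76, while the glucose transporter SLC2A3 rose by 2.11 and the hypoxia-responsive NDRG1 by 1.77. ENO1, among the most abundant genes that fell by 2-fold, went from 1986, 1792 and 1728 to 902, 937 and 841 CPM (-1.04). The nuclear-encoded respiratory chain list had 21 of 50 lower and 6 higher (median -0.24), a number of rises that was 3 without replicate 2 of DMSO, replicate 3 of DMSO or replicate 1 of FHT-1015. Its largest fall was in PPARGC1B, a coactivator of mitochondrial biogenesis, from 170, 157 and 155 to 9.75, 13.5 and 16.1 CPM (-3.61, SE 0.17, adjusted p 1.13e-10). TFAM, which maintains and transcribes mitochondrial DNA, fell by 0.91 and cytochrome c (CYCS) by 1.11.

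The 13 genes encoded in mitochondria had 5 higher and 0 lower, with a median of 0.20, beside the mitochondrial shares of counts given above for each group, whose part in this was not tested. MT-CYB, a subunit of complex III, was the largest rise, from 3436, 3341 and 3450 to 4474, 4840 and 4720 CPM (0.46, SE 0.10, adjusted p 0.000774). The count was 2 without replicate 2 or 3 of either group and 8 with library size alone. Of 28 tested genes of cholesterol synthesis and uptake, 17 fell and 4 rose (median -0.66). FDFT1, the first enzyme committed to sterols, went from 929, 881 and 947 to 263, 293 and 257 CPM (-1.76, SE 0.08, adjusted p 5.44e-11), and the fatty acid synthase FASN fell by 1.71. TM7SF2, a sterol reductase, rose by 3.34. The rise of SREBF1, a regulator of lipid genes, was 0.75 (adjusted p 0.0427) and was lost in 6 of 12 fits without a library, in DESeq2's test and with the stranded sum. The number of rises was 2 in 5 such fits, without replicate 2 of DMSO or FHT-1015 at 4 h, replicate 1 or 2 of DMSO at 24 h or replicate 2 of FHT-1015 at 24 h. In the lysosome list 23 of 38 fell and 7 rose (median -0.35), with CTSL, a cathepsin, going from 266, 262 and 280 to 48, 52.1 and 55.5 CPM (-2.38, adjusted p 9.27e-12) and CTSZ falling by 1.81.

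Among the genes of the drug's own target complex, 2 rises and 3 falls were of at least 2-fold. SMARCA4 (plus strand of chromosome 19, 10960825-11079426) was at 251, 279 and 286 CPM in DMSO and 337, 327 and 308 CPM with FHT-1015, a change of 0.25 (SE 0.09, adjusted p 0.0193). That call did not hold in 3 of the 12 refits with a library removed, those without replicate 1 of DMSO, replicate 1 of FHT-1015 or replicate 2 of FHT-1015, and without the low-count filter. SMARCA2 (plus strand of chromosome 9, 1980290-2193624) rose from 49.8, 41.2 and 43.6 to 77.9, 67.1 and 78 CPM (0.73, SE 0.10, adjusted p 2.01e-05), and that change exceeded its change at 4 h by 0.89 (adjusted p 0.000168). Neither mRNA level reports the activity of the ATPase that the drug inhibits. Over 29 tested BAF subunits 12 rose (41.4%, beside 29.2% of all genes) and 9 fell (31%, beside 31.4%), with a median of 0.16. Both BICRA paralogs, which define the non-canonical BAF complex, rose: BICRAL from 29.8, 23.4 and 28 to 74.1, 73.5 and 78.1 CPM (1.47, adjusted p 7.98e-09) and BICRA by 1.09. SMARCD3, a core subunit, rose by 0.95. SS18L1, the paralog of SS18 known from neuronal BAF, went from 192, 218 and 206 to 45.8, 55.6 and 55.8 CPM (-1.97, adjusted p 5.95e-11), and the PHD finger subunits DPF3 and DPF1 fell by 1.80 and 1.10. Among 45 polycomb genes and other chromatin regulators 22 rose and 9 fell (median 0.22): the deacetylase HDAC9 rose by 2.14, the polycomb reader CBX7 by 1.46 and the methyltransferase EZH1 by 1.06, while its paralog EZH2 fell by 0.84 and the remodeller CHD1 by 1.18.

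The list of Gq, phospholipase C and protein kinase C genes had 8 of 26 higher (30.8%) and 11 lower (42.3%), beside 29.2% and 31.4% of all genes tested, with a median of -0.21. RGS2, which switches Gq off, rose from 17.9, 21.3 and 28.2 to 185, 119 and 76.8 CPM (2.50, SE 0.26, adjusted p 7.61e-07). DGKA, which removes diacylglycerol, rose by 2.15 and PRKCH, a protein kinase C isoform, by 1.59. PRKCD, the isoform delta, fell from 48.8, 46.1 and 51.2 to 12, 11 and 14.1 CPM (-1.97, adjusted p 3.67e-09), and RGS20 and PRKCB fell by 1.94 and 1.46. GNAQ itself had a change of -0.10 (adjusted p 0.343), and GNA11 one of -0.48 (adjusted p 0.0079) that was lost without replicate 3 of DMSO. In the list of uveal melanoma driver and class genes, 6 of 15 rose and 5 fell, or 3 without replicate 3 of DMSO. BAP1 (0.13, adjusted p 0.139) and SF3B1 (0.10, adjusted p 0.322) did not pass the test. SATB1, a chromatin organiser, and ROBO1, a guidance receptor, both genes of low-risk tumours, rose by 1.68 and 1.5, while MTUS1, another gene of that class, fell by 0.51. RAB31, a gene of the high-risk class, fell by 0.96 and HTR2B, another of that class, rose by 0.49. The largest fall of the list was in ECM1 (-1.17), with a call lost in 4 of 12 fits without a library. FXR1, ID2 and LTA4H rose by 0.67, 0.60 and 0.59, and EIF1AX fell by 0.44.

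MAPK output genes went both ways, some by large steps. Of 34 tested, 14 rose (41.2%, beside 29.2% of all genes) and 10 fell (29.4%, beside 31.4%). The median was 0.11, and between 0.06 and 0.19 over all alternatives. NR4A2, an immediate early nuclear receptor (minus strand of chromosome 2, 156324432-156342348), went from 3.44, 4.69 and 5.42 CPM to 107, 130 and 158 CPM (4.88, SE 0.23, adjusted p 1.22e-10). SPRY1, a feedback inhibitor of the cascade, went from 2.43, 4.69 and 6.72 to 49.4, 77.2 and 100 CPM (4.07, SE 0.31, adjusted p 1.99e-08), and the phosphatase DUSP10 rose by 3.49. DUSP4, an ERK phosphatase, fell from 439, 437 and 554 to 68.8, 76.7 and 83.4 CPM (-2.64, SE 0.13, adjusted p 2.13e-10), with DUSP2 at -2.67 and PHLDA1 at -2.55. PHLDA1 had been higher than DMSO at 4 h (0.47, adjusted p 0.000527).

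Surface and matrix genes changed in both directions. Of 27 tested cadherin, adhesion and invasion genes 10 rose (37%, beside 29.2% of all genes) and 14 fell (51.9%, beside 31.4%), with a median of -0.50. CD44, the hyaluronan receptor (plus strand of chromosome 11, 35138870-35232402), went from 487, 494 and 539 to 55.5, 48.9 and 54.2 CPM (-3.26, SE 0.10, adjusted p 2.02e-12). MCAM, the melanoma cell adhesion molecule, went from 138, 109 and 103 to 7.43, 6.26 and 7.97 CPM (-4.0, SE 0.19, adjusted p 1.08e-10), and the metalloprotease ADAM12 fell by 3.05. CDH2, or N-cadherin, rose from 0.367, 0.493 and 0.431 to 19.6, 17.6 and 15.2 CPM (5.34, SE 0.28, adjusted p 3.59e-10). In the list of collagens, integrins and laminins, 15 of 34 rose (44.1%, beside 29.2% of all genes) and 10 fell (29.4%, beside 31.4%). The median was 0.25, and between 0.10 and 0.49 over all alternatives. The collagen-binding integrin ITGA1 rose from 3.81, 2.1 and 2.9 to 48.2, 51.7 and 56 CPM (4.12, SE 0.20, adjusted p 1.85e-10) and ITGB8 by 3.86, while ITGA9 fell from 24.1, 17.4 and 19.8 to 1.5, 2.14 and 1.28 CPM (-3.66, SE 0.25, adjusted p 5.94e-09). ITGA4 had 1, 0 and 1 counts in DMSO and 18, 10 and 34 with FHT-1015, at least 7.88-fold higher. COL9A3, a collagen chain, and LAMA4, a laminin chain, fell by 1.68 and 1.56. Beside this list, the 8 fibroblast markers summed to 3.747 to 5.072 CPM in DMSO and 14.43 to 17.76 with FHT-1015, where 2 rose and 1 fell and 6 of the 8, COL1A2, COL3A1, LUM, DCN, THY1 and FAP, stayed under 1. Their part in the result was not tested. The endothelial markers summed to 46.73 to 65.18 and 56.91 to 65.36, nearly all of it EGFL7.

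Axon guidance molecules, which melanocytes share with neurons through the neural crest, had 20 of 42 tested genes higher and 14 lower (median 0.31). SEMA3A, a secreted repellent (minus strand of chromosome 7, 83955777-84492724), rose from 3.22, 2.47 and 2.22 to 77.2, 71.6 and 66.8 CPM (4.75, SE 0.18, adjusted p 1.33e-11). SLIT2, the ligand of ROBO receptors, rose from 5.97, 6.35 and 7.95 to 66.9, 57.8 and 62.7 CPM (3.21, SE 0.13, adjusted p 2.7e-11), and the receptor EPHA3 rose by 3.54. Among the falls, NRP2, a coreceptor for semaphorins, fell from 126, 107 and 97.7 to 6.21, 5.63 and 3.78 CPM (-4.42, SE 0.20, adjusted p 6.04e-11), PLXNC1, the plexin of SEMA7A, from 116, 113 and 121 to 3.82, 4.28 and 8.03 CPM (-4.41, SE 0.21, adjusted p 1.01e-10), and PLXNA4 by 4.05. The markers of Schwann cells, another product of the crest, summed to 501.1 to 552.3 CPM in DMSO and 346.2 to 405.5 with FHT-1015, with 2 higher and 3 lower, and those of neurons to 3.527 to 6.763 and 6.67 to 10.51.

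Receptors and ligands of growth factors changed in both directions. Of 17 tested receptor tyrosine kinases 9 fell (52.9%, beside 31.4% of all genes) and 7 rose (41.2%, beside 29.2%). The median was -0.59, and between -0.65 and -0.305 over all alternatives. ERBB3, the neuregulin receptor and a SOX10 target, went from 129, 116 and 122 to 16, 14.6 and 15.8 CPM (-2.98, SE 0.12, adjusted p 1.82e-11), as it had by 4 h (-2.68). NTRK2 and RET, receptors for neurotrophins and for GDNF family ligands, fell by 3.04 and 2.97, whereas at 4 h their changes were -0.09 (adjusted p 0.784) and 0.57 (adjusted p 0.0759). PDGFRA rose by 2.44 and ERBB4 by 1.89 from low levels. Among 16 tested secreted factors 8 fell and 6 rose. FGF9, a fibroblast growth factor, went from 83.2, 102 and 124 to 5.32, 9.19 and 12 CPM (-3.53, SE 0.21, adjusted p 1.72e-09), and NRG2, a ligand of ERBB receptors, fell by 3.03. KITLG, the ligand of KIT, rose by 1.96 and PDGFC by 3.60.

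The WNT list had 12 of 35 higher and 16 lower, with changes over 2-fold in 9 and 11 of them. Its median was -0.23, and between -0.26 and -0.07 over all alternatives. DKK1, a secreted WNT antagonist, rose from 0.459, 0.987 and 1.11 to 24.8, 23.4 and 27.9 CPM (4.94, SE 0.23, adjusted p 1.05e-10), and the intracellular inhibitors CXXC4 and DACT1 rose by 4.48 and 3.00. The receptors FZD8 and FZD5 fell by 2.76 and 2.68. In the BMP and TGF-beta list 18 of 33 rose and 11 fell (median 0.41). The ligand TGFB3, its binding protein LTBP1 and the BMP target ID1 rose by 1.86, 1.76 and 1.49, while BAMBI, a decoy receptor, and ATOH8, a BMP-responsive factor, fell by 2.82 and 2.92. Genes of the YAP and TEAD list were higher in 11 and lower in 4 of 22 (median 0.31), among them DLC1, a GTPase-activating protein, from 128, 103 and 130 to 306, 317 and 365 CPM (1.46, adjusted p 6.91e-08), and AJUBA at 1.32. At 4 h, 13 of these 22 had been lower and 2 higher, beside 16.7% and 12.9% of all genes. In the list of IL6 receptor and JAK-STAT genes 11 of 26 rose and 8 fell (median 0.20). SOCS2, a feedback inhibitor, rose from 10.6, 11.3 and 9.18 to 77.1, 89.7 and 92.4 CPM (3.06, SE 0.12, adjusted p 1.27e-11), and its relative CISH fell by 3.55. The receptors IL6R and CNTFR fell by 3.07 and 2.55 and LIFR rose by 1.45.

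**Figure D4:**
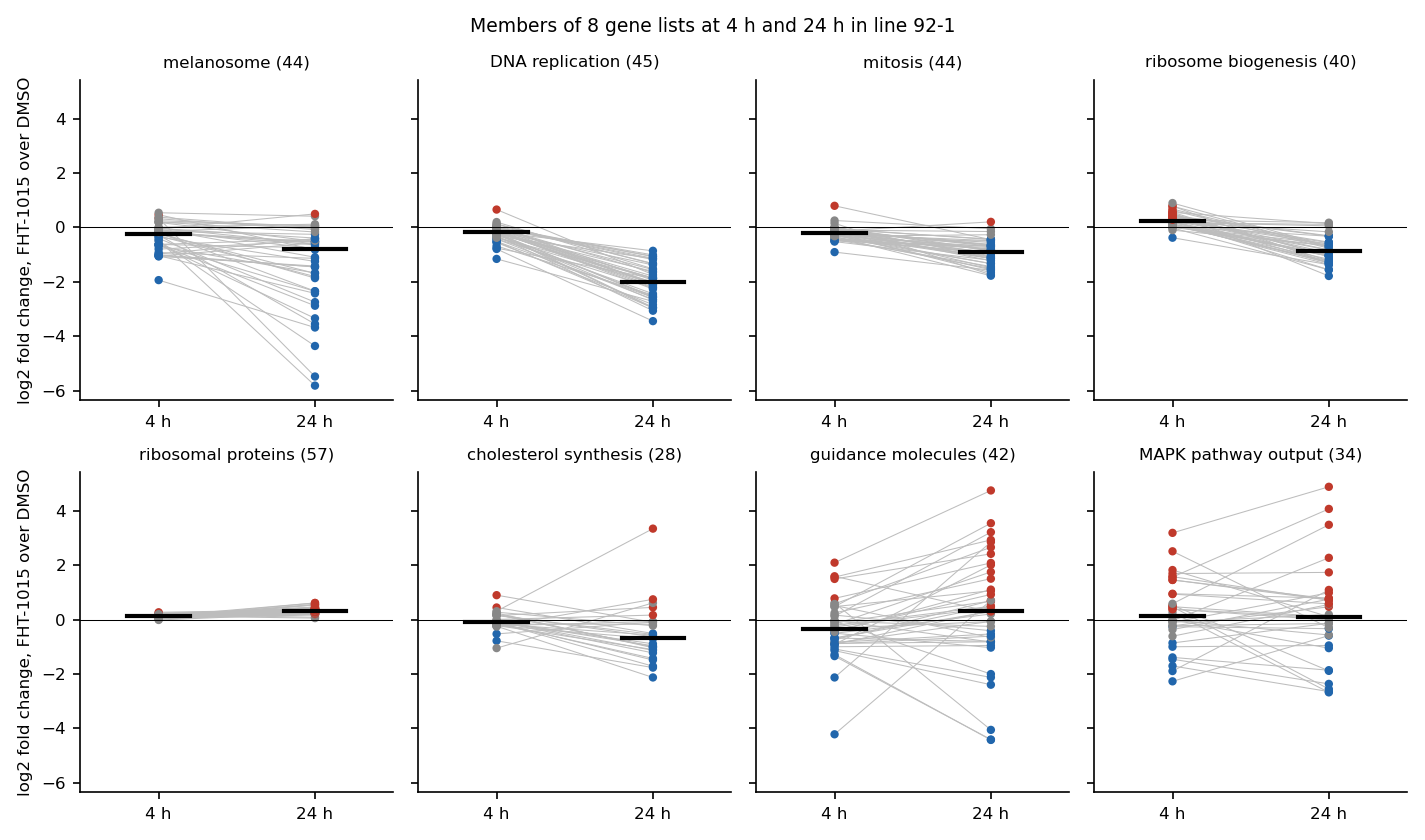
Log2 fold change of FHT-1015 against DMSO in 92-1 at 4 h and at 24 h for the tested genes of 8 lists, 1 point per gene and a black bar at the median. The DNA replication median goes from -0.18 to -2.02 and the ribosome biogenesis median from 0.23 to -0.89.

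Genes of cell death and stress gave a mixed picture. Of 16 tested BCL2 family genes 3 rose and 7 fell. The rises were all in pro-apoptotic BH3-only genes: BCL2L11 (BIM) went from 9.65, 8.08 and 9.37 to 25.1, 32.6 and 37.5 CPM (1.81, SE 0.16, adjusted p 8.35e-08), BMF from 58.6, 58.8 and 62.9 to 171, 192 and 183 CPM (1.60, SE 0.09, adjusted p 7.74e-10) and BBC3 (PUMA) by 1.36. The falls included the anti-apoptotic BCL2, from 186, 166 and 170 to 71.4, 74.7 and 73.7 CPM (-1.25, SE 0.09, adjusted p 2.11e-08), but also the pro-apoptotic HRK (-2.88), BAX (-0.73), BAK1 (-0.43) and BID (-0.53). BIK fell by 1.70 with a call lost without replicate 3 of DMSO or of FHT-1015, and PMAIP1 fell by 0.38 with a call lost in 4 such fits and with library size alone. MCL1 (-0.13, adjusted p 0.127) and BCL2L1 (-0.06, adjusted p 0.621) did not pass the test. The p53 target list had 4 of 24 higher and 10 lower, with TP53INP1 at 0.90 and FDXR at 0.70 and with AEN at -1.56 and FAS at -1.34. Its median was -0.10, and between -0.18 and -0.03 over all alternatives. Genes of ATF4 and the unfolded protein response had 14 of 26 lower and 4 higher (median -0.40). XBP1, a transducer of that response, fell from 94.5, 85.3 and 87.5 to 25.6, 25.1 and 25.1 CPM (-1.82, SE 0.10, adjusted p 4.18e-10) and CHAC1 by 3.39, while ATF3 rose by 2.46. The chaperone HSP90AA1, among the most abundant genes that fell, went from 4036, 2884 and 3270 to 1532, 1450 and 1381 CPM (-1.22).

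Of 18 tested genes of HLA class I antigen presentation 6 rose (33.3%, beside 29.2% of all genes) and 8 fell (44.4%, beside 31.4%), with a median of -0.28. HLA-E and HLA-C rose by 1.09 and 0.80. Reads can be shared among near-identical genes of this family, so their values are uncertain. The invariant chain B2M fell by 0.56 and NLRC5, the class I transactivator, by 3.08, while the peptide transporter TAP1 rose by 1.27. Of 20 tested interferon-stimulated genes 3 rose and 7 fell, with STAT2 at 0.84 and IFIT3 at -1.49. The median was -0.11, and between -0.15 and -0.02 over all alternatives. In the calcium list 7 of 25 rose and 10 fell (median -0.19): the sodium-calcium exchanger SLC8A1 rose from 6.06, 3.15 and 3.7 to 73.7, 71.2 and 55.7 CPM (3.93, adjusted p 3.25e-10), and the IP3 receptor ITPR3, which releases calcium below phospholipase C, fell by 2.12.

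The largest rises among protein-coding genes that averaged 5 CPM or more were from levels close to 0. SLITRK6, a neuronal surface protein (minus strand of chromosome 13, 85792787-85806683), had raw counts of 0, 1 and 0 in DMSO and 322, 288 and 504 with FHT-1015, at least 146-fold higher. VWC2, a secreted BMP antagonist (plus strand of chromosome 7, 49773661-49921950), had 0, 1 and 1 counts against 279, 186 and 267, at least 97.1-fold higher. DLX2, a homeobox factor (minus strand of chromosome 2, 172099439-172102900), went from 0.551, 0.37 and 0.555 to 36.9, 44.5 and 41.6 CPM (6.35, SE 0.27, adjusted p 3.99e-11). The 3 treated libraries lay close together for these genes, unlike for SPP1 (osteopontin), which was at 0.505, 1.05 and 0.493 CPM in DMSO and at 8.53, 37.8 and 81.2 CPM with FHT-1015 (5.98, SE 0.68, adjusted p 1.64e-06). The other 6 of the 10 largest rises were the protocadherin PCDH17 (6.19), the peptide receptor CALCRL (5.78), the proteases ADAMTS5 (5.65) and ADAMTS6 (5.54), the integrin ligand EDIL3 (5.44) and CDH2. Among abundant genes that rose by 2-fold or more, the scavenger receptor CD36 went from 888, 792 and 978 to 1983, 1852 and 1958 CPM (1.12) and RTN4, an endoplasmic reticulum protein, from 319, 360 and 416 to 1448, 1332 and 1344 CPM (1.91).

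The deepest fall among such genes was in PFKFB2, which encodes an enzyme that regulates glycolysis (plus strand of chromosome 1, 207034366-207081024). It went from 149, 133 and 158 CPM to 1.16, 1.74 and 0.873 CPM (-6.90, SE 0.28, adjusted p 2.1e-11). With the sum of the stranded counts the change was -4.99, and the gene overlaps YOD1. The others were SGCA, a sarcoglycan (-6.10), SH3TC2, an endosomal protein of Schwann cells (-5.97), the cytokine IL16 (-5.57), TRPM1, the lamin partner MLIP (-5.38), C11orf96 (-5.22), the chloride channel BEST1 (-4.93), PRUNE2 (-4.92) and the lipid flippase ATP10A (-4.87). The sum of the stranded counts gave -3.88 for IL16, which overlaps STARD5, and -0.74 for BEST1, which overlaps the very abundant FTH1.

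Set beside the early response, the late one was partly new, partly a continuation and, for fewer genes, a reversal. Of 2016 genes higher at 4 h, 910 were also higher at 24 h, 477 were lower and 629 passed in neither direction. Of 2615 lower at 4 h, 1481 were also lower at 24 h, 440 were higher and 694 did not pass. Genes called only at 24 h numbered 3230 higher and 2962 lower. The test of the difference itself placed 3317 genes above (21.1%) and 3816 below (24.3%) their 4 h change. The largest such differences downward, among genes with a mean of at least 5 CPM, were in TRPM1 (-5.82, SE 0.19, adjusted p 7.97e-11), IL16 (-5.58), MLIP (-5.00) and PFKFB2 (-4.53). With the sum of the stranded counts the difference was -3.98 for IL16 and -2.75 for PFKFB2, and both passed the test. Upward they were in VWC2, SLITRK6, PCDH17 and SPP1, whose levels at 4 h were at most 0.38 CPM in the group means, so the early change they are set against rests on few counts. The PCDH17 call was lost without replicate 3 of DMSO at 4 h, where the difference was 4.84, and the SPP1 call with limma-voom. CD44, PLXNC1 and NRP2, by contrast, had begun to fall at 4 h (-0.96, -1.34 and -1.28).

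In a single fit of 36 samples, the 24 h change in 92-1 was compared with that in MEL202 and in MP41, each against its own DMSO. Of 18395 genes tested, 212 lay above both other lines (1.15%) and 239 below both (1.3%) at an adjusted p under 0.05 in each test. The biological coefficient of variation was 0.224 in that fit against 0.117 in the 12 samples of 92-1, so smaller differences between lines may not have been detectable. DLX2 rose in all 3 lines, by 2.06 in MEL202 and 2.22 in MP41, but its DMSO level there was 36.7 ± 5.02 and 15.2 ± 3.69 CPM (SD, n = 3) rather than under 1 as in 92-1, and the treated levels were 153 ± 4.11 and 70.6 ± 7.26 CPM. The change in 92-1 exceeded theirs by 4.31 (adjusted p 8.5e-10) and 4.15 (adjusted p 1.96e-09). SPP1 passed the test in neither (0.27 and -0.24, adjusted p 0.699 and 0.711), and its DMSO level was 13.7 ± 5.34 CPM in MEL202 and 321 ± 44.3 CPM in MP41 (SD, n = 3), the latter above every treated library of 92-1. SCG2, a secretory granule protein, rose by 1.08 and 0.86 there and by 5.21 in 92-1. CDH2, which averaged under 5 CPM over the 12 libraries of 92-1 and so fell outside the rule for these genes, differed by 4.18 (adjusted p 1.12e-09) from MEL202 and 5.54 (adjusted p 5.74e-12) from MP41. SLITRK6, also above both lines, was at 3 counts or fewer in every MP41 library at 24 h, and its call against MP41 was lost without replicate 1 or 3 of DMSO at 24 h in MP41.

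Below both lines were PFKFB2, which fell there by 1.63 and 1.60, C11orf96, ITGA9 and BAMBI. ITGA9 had changes of -0.04 (adjusted p 0.951) in MEL202 and 0.59 (adjusted p 0.0866) in MP41, and the difference from 92-1 was -3.60 (adjusted p 5.92e-07) and -4.22 (adjusted p 1.23e-08). BAMBI moved in opposite directions: it rose in MEL202 from 102 ± 10.5 to 179 ± 23.5 CPM (0.82, adjusted p 0.000948) and in MP41 from 176 ± 34.1 to 294 ± 24.4 CPM (0.74, adjusted p 0.00252), and fell in 92-1 from 62.6, 61.8 and 60.4 to 10.9, 7.61 and 7.62 CPM. For SOX10 the differences were 0.79 (adjusted p 0.121) from MEL202 and 0.15 (adjusted p 0.803) from MP41. For MITF the change in 92-1 was less negative than in MP41 by 1.00 (SE 0.29, adjusted p 0.0241), and the difference from MEL202 was 0.30 (adjusted p 0.72). SMARCA2 rose in 92-1 but had changes of -0.11 and -0.04 in MEL202 and MP41, and the differences were 0.86 (adjusted p 0.0107) and 0.79 (adjusted p 0.0159).

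**Figure D5:**
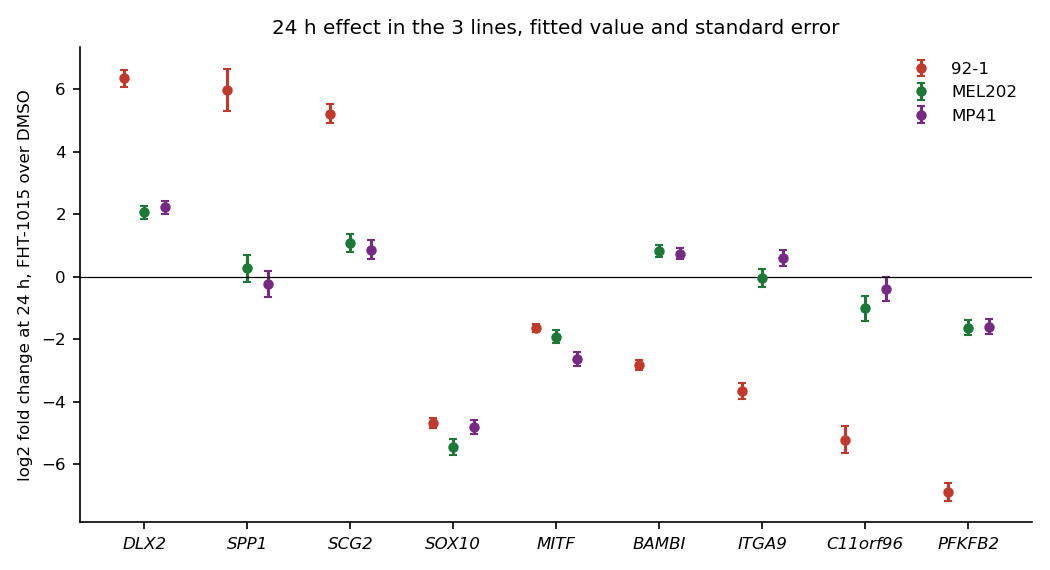
Log2 fold change of FHT-1015 against DMSO at 24 h, with its standard error as a bar, in 92-1, MEL202 and MP41 for 9 genes. Values of 92-1 are from the fit of its 12 samples, and those of MEL202 and MP41 from the fit of 36 samples. The biological coefficient of variation was 0.117 and 0.224 in these fits, so the bars of 92-1 cannot be compared directly with the others. BAMBI and ITGA9 lie far below 0 in 92-1 alone, and SOX10 and MITF lie below 0 in all 3 lines.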

How the data were processed

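The authors deposited whole-number counts of reads in each gene, unstranded and for each strand, in the layout of STAR's gene counts. Per the submitters' processing notes the build was hg38, and limma is named without a role; the aligner's settings were not given in the sources used here. Per the labels' protocols the libraries were made with an unstranded poly-A kit, so the unstranded counts were used. Reads that fall on overlapping genes are left out of such counts. Of 58870 gene IDs, 58597 matched GENCODE 29, which gave symbols, types and positions. The 92 spike-in rows were at 0 counts.

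The 12 libraries of 92-1 in the FHT-1015 experiment were fitted with edgeR 4.0.16 (R 4.3.3: filterByExpr, TMM, quasi-likelihood test, 4 groups, no block), and 36 libraries of the 3 lines in a second fit. Calls are at an adjusted p under 0.05. Samples were grouped by their labels. DESeq2 1.42.0, limma-voom (limma 3.58.1), other scalings, no filter, stranded sums, a replicate block, only 6 samples and each library left out were tried. The scripts were tested on simulated data. No column of the files was left without a sample.

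Same-numbered libraries did not all deviate together (correlations across genes of 0.059, 0.19 and -0.163 at 24 h and of 0.238, 0.034 and 0.105 at 4 h), so the numbers were not used as pairs. Named genes are SOX10, MITF, SMARCA4 and SMARCA2, the 10 largest rises and falls of protein-coding genes that averaged 5 CPM or more, without overlap between groups, the 4 most abundant in each direction past 2-fold, the 3 largest rises and falls of each list, and the 4 largest differences in each direction between times and between lines (for lines, at a mean of 5 CPM or more over the 12 libraries of 92-1). The lists and their members were chosen with earlier results of these data known. Lists are described by counts and medians, and only the melanosome genes' share of counts was tested, by an exact permutation test. Fold changes against a group at 3 counts or fewer in each library are bounds, taken against 3 counts per library on the TMM scale. The values of a few genes that were tested are not reported here.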

Additional observations from a re-analysis of the deposited data

Results flagged for a closer look

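MITF and SMARCA2 changed differently at 24 h and at 4 h by edgeR's test of the difference between the log2 changes. The other 5 genes here were named because this difference was large in them, so their passing the test follows from the choice. The difference was -1.33 in MITF (adjusted p 2.57e-05), 0.886 in SMARCA2 (0.000168), -4.53 in PFKFB2 (9.35e-08), -5.58 in IL16 (2.54e-07), -5.82 in TRPM1 (7.97e-11) and -5.00 in MLIP (4.55e-10). With the sum of the stranded counts it was -2.75 in PFKFB2 and -3.98 in IL16. In SPP1 it was 6.71 (0.00579), from treated libraries at 8.53, 37.8 and 81.2 CPM, and the call was lost with limma-voom. MLIP encodes a lamin-interacting protein of muscle, and its level fell from 51.3, 51.6 and 43.9 to 1.09, 1.43 and 1.05 CPM at 24 h.

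The genes in which the 24 h change in 92-1 differed from that in MEL202 and MP41 were named for the size of that difference, so the values of 7 of them are a description (edgeR, adjusted p in parentheses). For DLX2 the differences were 4.31 (8.5e-10) and 4.15 (1.96e-09), for SPP1 5.73 (2.6e-06) and 6.23 (2.73e-07), and for SCG2 4.14 (9.39e-08) and 4.36 (3.59e-08). For PFKFB2 they were -5.23 (5.41e-11) and -5.26 (3.11e-11), for C11orf96 -4.19 (8.82e-06) and -4.81 (3.8e-07), for ITGA9 -3.60 (5.92e-07) and -4.22 (1.23e-08), and for BAMBI -3.62 (1.19e-10) and -3.53 (1.2e-10). C11orf96 varied among the DMSO libraries of 92-1, at 70.2, 131 and 199 CPM. BAMBI is the gene of these that rose in both other lines and fell in 92-1.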

How the results depend on the processing

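The counts of genes changed at 24 h kept within 1.5 times of the reported ones in every alternative but 1: a test against a 2-fold change itself (glmTreat) gave 1102 genes higher and 1081 lower. Over 8 alternatives, 4440 to 5164 genes rose and 4474 to 5538 fell, and with each of the 12 libraries left out 4198 to 4758 and 4583 to 5163. The replicate block gave 4745 higher and 5080 lower. Library size alone raised the share of calls that were rises from 48.2 to 53.2%. The stranded sums turned 40 calls, and the other alternatives turned 0. Small list medians moved too: from -0.26 to -0.11 for the Gq list and from 0.25 to 0.49 for the BMP and TGF-beta list. They ran from 0.16 to 0.385 for the YAP list, from -0.33 to -0.155 for the HLA list and from -0.275 to -0.12 for the calcium list. Of 220 changes of named genes at 24 h, 203 kept their direction and call throughout, while the calls lost or gained on differences between times or lines are those given for SOX10, PCDH17, SPP1 and SLITRK6. For genes that differ from both lines, the counts ran from 161 to 277 above and from 233 to 328 below, and from 143 to 247 and 168 to 273 with a library left out. Depth limits genes with few counts. Changes are bounds only where a group was at 3 counts or fewer in each library. Other changes from few counts are fitted values, as for PLXNA4, which had 9, 5 and 0 counts with FHT-1015 at 24 h.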
